A study of Homo sapiens with 20 samples.

Results

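The nuclear genes of oxidative phosphorylation were followed in HEK293 cells, a human embryonic kidney line, after knockdown of Dicer, Ago2 or Drosha. They were taken by name: protein-coding nuclear genes whose symbols start with NDUFA, NDUFB, NDUFC, NDUFS, NDUFV, UQCR, COX4 to COX8 or ATP5, together with SDHA, SDHB, SDHC, SDHD and CYC1. This gave 99 genes of 57087 in the tables. They fall into 37 complex I subunits, 8 complex I assembly factors (NDUFAF1 to NDUFAF8), 4 complex II subunits, 10 complex III subunits, 19 complex IV subunits, 18 ATP synthase subunits, the ATP synthase inhibitor ATP5IF1 and 2 read-through genes.

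The respiratory chain passes electrons from NADH and succinate to oxygen through complexes I to IV of the inner mitochondrial membrane, and ATP synthase uses the proton gradient that results. Complex II is encoded wholly in the nucleus, whereas the other complexes combine nuclear subunits with a core made inside the mitochondrion. The nuclear subunit genes lie on many chromosomes, are expressed in nearly every cell type, and their promoters are known for sites of the transcription factors NRF1, GABP (an ETS factor) and YY1.

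Libraries were of cellular RNA (mRNA-seq) and of RNA that stays with chromatin (chrRNA-seq), which is rich in transcripts still being made or spliced. In mRNA-seq, 3 wild-type (wt) samples were HEK293T cells and 3 shDicer samples were HEK293 2B cells, a line with an inducible short hairpin RNA against Dicer. Both had 3 µg/ml doxycycline for 7 days, so line and knockdown cannot be told apart there. In chrRNA-seq, 2 samples each were wt HEK293, shDicer, shAgo2 and shDrosha, and the 3 knockdowns share the same 2 wt samples. The shDicer and shAgo2 cells were inducible lines given 3 µg/ml doxycycline for 72 h. The shDrosha cells were transfected with hairpin plasmids, and the sources used here do not state doxycycline for wt and shDrosha. On chromatin too, line and knockdown cannot be told apart for shDicer and shAgo2, nor can doxycycline if wt had none. The labels call the cellular RNA polyA, while the study's methods describe removal of ribosomal RNA. Nothing states separate cultures, so p-values measure the spread between these samples, which may be technical.

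Total estimated counts were 10216430 to 17215978 per mRNA-seq sample and 17484067 to 21553760 per chrRNA-seq sample. DICER1 was lower in shDicer mRNA-seq (log2 fold change -1.49, edgeR adjusted p = 1.28e-07) but did not pass in shDicer chrRNA-seq (-0.17, adjusted p = 0.166). AGO2 was lower in shAgo2 (-0.62, adjusted p = 9.31e-05), and DROSHA did not pass in shDrosha (0.07, adjusted p = 0.697). Measures of the knockdowns other than these RNA tables were not used here. Markers of HEK293 cells also moved: of 7, 3 rose and 1 fell among the 6 tested in shDicer mRNA-seq, 5 rose and 2 fell in shDicer chromatin, 3 and 2 in shAgo2, and 0 and 2 in shDrosha. Of 6 fibroblast and 5 leukocyte markers none passed the count filter in mRNA-seq, and 4 of each did in chrRNA-seq, where 1 leukocyte marker was lower in shDicer and 2 in shAgo2, and 1 fibroblast marker was higher in shAgo2. The part of these differences in the results below was not tested.

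Counts on transcripts that keep an intron differed between the assays for many of these genes. Each intron printed is kept in the retained-intron transcript with the most counts of its gene in wt chrRNA-seq, read from hg38 at both splice sites, with exon bases in capitals and intron bases in lower case. NDUFV1, NDUFA10 and ATP5PO were chosen because they were among the members with the largest falls in chrRNA-seq, and ATP5F1D because it is among the 3 with the highest retained share.
NDUFV1 (transcript NDUFV1-208, chr11:67610571.0-67610994.0, plus strand), 5′ splice site: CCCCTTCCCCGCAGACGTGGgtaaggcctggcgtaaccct
NDUFV1, 3′ splice site: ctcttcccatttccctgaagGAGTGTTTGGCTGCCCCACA
NDUFA10 (transcript NDUFA10-212, chr2:240011697.0-240014738.0, minus strand), 5′ splice site: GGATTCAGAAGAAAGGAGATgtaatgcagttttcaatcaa
NDUFA10, 3′ splice site: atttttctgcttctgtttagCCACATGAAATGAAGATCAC
ATP5PO (transcript ATP5PO-208, chr21:33914501.0-33915727.0, minus strand), 5′ splice site: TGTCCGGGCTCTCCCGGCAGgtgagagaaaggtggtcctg
ATP5PO, 3′ splice site: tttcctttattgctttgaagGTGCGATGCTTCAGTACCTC
ATP5F1D (transcript ATP5F1D-208, chr19:1241992.0-1242455.0, plus strand), 5′ splice site: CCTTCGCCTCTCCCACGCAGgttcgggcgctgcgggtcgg
ATP5F1D, 3′ splice site: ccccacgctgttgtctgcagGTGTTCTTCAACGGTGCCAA
All 4 introns open with GT and close with AG. In wt chrRNA-seq these single transcripts took 29.1% of the NDUFV1 counts, 38.9% of NDUFA10, 68.6% of ATP5PO and 74.4% of ATP5F1D.

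Over all 99 genes, transcripts annotated as keeping an intron took 3.50 to 3.57% of member counts in wt mRNA-seq and 31.6 to 31.7% in wt chrRNA-seq. Over all protein-coding genes the same shares were 5.11 to 5.18% and 19.9 to 20.3%. The respiratory genes were thus below all coding genes in cellular RNA and above them on chromatin, in each of the 14 samples. Among the knockdowns the chromatin share ran from 27.7% in shDicer replicate 2 to 33.5% in shDrosha replicate 2, a range that holds the wt values. In shDicer mRNA-seq the member share was 2.52 to 2.73%, under each wt sample. Over all protein-coding genes it was 4.42 to 4.64%, also under each wt sample.

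Of the 86 members whose CPM (counts scaled to normalised library size) averaged at least 3 on the log2 scale in chrRNA-seq, 19 (22.1%) had more than 50% of their wt chromatin counts on retained-intron transcripts, against 13.8% of 12328 coding genes with a mean CPM of at least 8. Their median share was 17.8%, against 5.54% for those coding genes, and in wt mRNA-seq the medians were 0.656% and 0.738%. The shares depend on which transcripts are annotated: 58 of the 99 genes have a retained-intron transcript in the tables at all. How many of the coding genes have one is not given here, so the part of annotation in these differences was not tested. Of the 86, 56 have one, and 50 of these had a higher share in both wt chromatin samples than in each wt mRNA-seq sample. NDUFA9, a complex I subunit, went the other way (19.4 and 24.3% on chromatin and 47.5 to 48.8% in wt mRNA-seq), and for UQCRC1 the assays overlapped (41.8 and 46.8% and 41.4 to 44.6%). SDHA, the flavoprotein of complex II, was highest at 91 and 91.7% in the 2 wt chromatin samples and 18.6 to 24.3% in wt mRNA-seq. ATP5MC2, one of 3 genes for the ring subunit c of ATP synthase, followed at 90 and 89.6%, and ATP5F1D, the delta subunit, at 88.7 and 81.8%. Their shares in wt mRNA-seq were also high, at 47.9 to 67.6% and 45.3 to 71.5%, and copies of ATP5F1D on alternative loci were not checked for, so its level is uncertain. CYC1, the cytochrome c1 of complex III, was at 81.3 and 83.2% on chromatin and 1.59 to 2.94% in wt mRNA-seq. UQCR11, UQCRFS1 and UQCRHL, like other members, have no retained-intron transcript in the tables, so that their share is 0 by annotation.

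In cellular RNA the family was abundant. The median member stood at percentile 95.7 of 12761 tested coding genes by TPM (a level scaled to transcript length and library total) in wt mRNA-seq, with a median of 81.0 TPM over 90 members against 5.23 TPM for the coding genes. On chromatin the median member stood at percentile 75.5 of 16672 coding genes, with 24.6 TPM against 9.16 TPM. The highest wt mRNA-seq levels were NDUFS5 in complex I (293 ± 12 TPM, SD, n = 3), SDHB in complex II (88.8 ± 6.01), UQCRH in complex III (404 ± 10.1), COX7C in complex IV (457 ± 30.4) and ATP5MK in ATP synthase (506 ± 35.5). On chromatin other members led: NDUFB8 (105 ± 0.957 TPM, SD, n = 2), SDHA (107 ± 1.91), UQCRC1 (62.5 ± 1.33), COX6C (49 ± 2.14) and ATP5MF (162 ± 9.86).

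Tissue-type isoforms were set apart by these levels. COX7A1, the muscle form of subunit 7A, had 0 counts in all 6 mRNA-seq samples, where 3 counts would be 0.179 to 0.307 CPM. On chromatin COX7A1 had 6.17 and 6.44 CPM in wt, 12.6 and 8.95 in shDicer, 10.5 and 11.7 in shAgo2 and 3.31 and 5.17 in shDrosha. Both inducible lines were above wt, but neither passed (edgeR adjusted p = 0.00885 and 0.00572), and the 50 nearest tested genes had median log2 fold changes of 1.0 and 1.07. COX7A2, the ubiquitous form, was at 281 ± 7.95 TPM (SD, n = 3) in wt mRNA-seq, and the related COX7A2L at 56.6 ± 1.28 TPM. COX4I1 was at 148 ± 0.863 TPM, COX6A1 at 206 ± 11.5 TPM, COX8A at 148 ± 5.01 TPM and COX7B at 133 ± 4.95 TPM, while their partners COX4I2, COX6A2, COX8C and COX7B2 passed the count filter in neither assay.

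COX6B2, the testis form of subunit 6B, had 0.0811, 0.801 and 0.307 CPM in wt mRNA-seq and 12.6 and 12.3 CPM in wt chromatin. NDUFA4L2, the hypoxia-induced relative of NDUFA4, likewise had 0.162, 0.0889 and 0.102 CPM and 18 and 14.5 CPM. Both were thus seen nearly on chromatin alone. Of the ring subunit genes, ATP5MC1 was at 125 ± 4.03 TPM and ATP5MC3 at 99.7 ± 1.97 TPM in wt mRNA-seq, with ATP5MC2 at 5.40 ± 0.509 TPM. UQCRHL, an intronless copy of UQCRH, was at 0.198 ± 0.0597 TPM, and 26.3% of the 31-base stretches of UQCRH transcripts also occur in other genes. The low level of COX6B1 (2.27, 5.07 and 6.86 CPM in wt mRNA-seq) is uncertain, because its canonical GENCODE transcript was not among the identifiers of the tables, as was also so for COX7A2, COX7B and UQCRHL.

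Of the 99 members, 90 were tested in mRNA-seq and 94 in chrRNA-seq. COX4I2, COX6A2, COX7B2, COX8C and NDUFC2-KCTD14 were tested in neither, and ATP5MGL, COX6B2, COX7A1 and NDUFA4L2 on chromatin alone. Of the 94 members tested on chromatin, 47 (50%) passed in at least 1 comparison with wt in either assay, beside 35.1% of all 32874 genes. These sets are unlike, since 90 of the members but only 14949 of all genes were also tested in mRNA-seq.

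In shDicer mRNA-seq, 9 members were higher and 20 lower at an adjusted p under 0.001, or 10% and 22.2% of the 90 tested, beside 15.6% and 14.2% of all 15089 genes. The median log2 fold change of the members was -0.16, against 0.01 for all genes, and 58 were negative. The summed level did not separate the groups: members added up to 11803, 11850.0 and 11811 CPM in wt and 11524, 11990.3 and 11503 CPM in shDicer. In complexes I, II and III and in ATP synthase, falls in some subunits stood beside rises in others. Complex IV had 0 higher and 2 lower. Its subunits summed to 1816 to 1838 CPM in wt and 1556 to 1621 CPM in shDicer. Complex II summed to 473 to 494 CPM in wt and 522.5 to 538 CPM in shDicer. The sum of complex I was also lower in every shDicer sample, that of complex III was higher, and that of ATP synthase overlapped wt. Without wt replicate 1, 2 or 3 the number of members higher was 5 each time.

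Complex III held the subunits with the highest and the lowest change, UQCRFS1 and UQCRB. UQCRFS1, the Rieske iron-sulfur protein, had 148, 151 and 146 CPM in wt and 279, 302 and 273 CPM in shDicer. It rose by 0.94 ± 0.07 on the log2 scale (SE, adjusted p = 1.09e-06). UQCRB, a small subunit that binds ubiquinone, had 325, 340.5 and 316 CPM in wt and 142, 165 and 181 CPM in shDicer, a log2 fold change of -1.01 ± 0.09 (adjusted p = 4.40e-06). For neither gene did the groups overlap. UQCRH, the hinge protein, rose by 0.46 ± 0.07, a call lost without wt replicate 2 or 3 (highest adjusted p = 0.00322), and UQCRC2, a core protein, fell by 0.56 ± 0.07.

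In complex II, both catalytic subunits and one membrane anchor passed. SDHA had 99, 99.9 and 104 CPM in wt and 179.7, 173 and 163 CPM in shDicer, a log2 fold change of 0.76 ± 0.07 (adjusted p = 5.74e-06). SDHB, the iron-sulfur subunit, had 119, 120.3 and 116 CPM in wt and 189, 186 and 190.0 CPM in shDicer, a log2 fold change of 0.67 ± 0.06 (adjusted p = 7.30e-06). Both catalytic subunits stood above wt in every shDicer sample. The SDHB call was lost with length-scaled counts (0.36, adjusted p = 0.0101), its TPM was 88.8 ± 6.01 in wt and 93.9 ± 23.2 in shDicer (SD, n = 3), and with its neighbours' change taken off it was at -0.0609. SDHD, a membrane anchor, went from 184, 195 and 188 CPM to 98.4, 114 and 104 CPM (-0.84 ± 0.08, adjusted p = 4.76e-06). SDHC, the other anchor, had 71.6, 78.6 and 75.7 CPM in wt and 55, 65.5 and 66.6 CPM in shDicer, lower in every sample but not past the threshold (-0.27 ± 0.09, adjusted p = 0.0250).

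**Figure D1:**
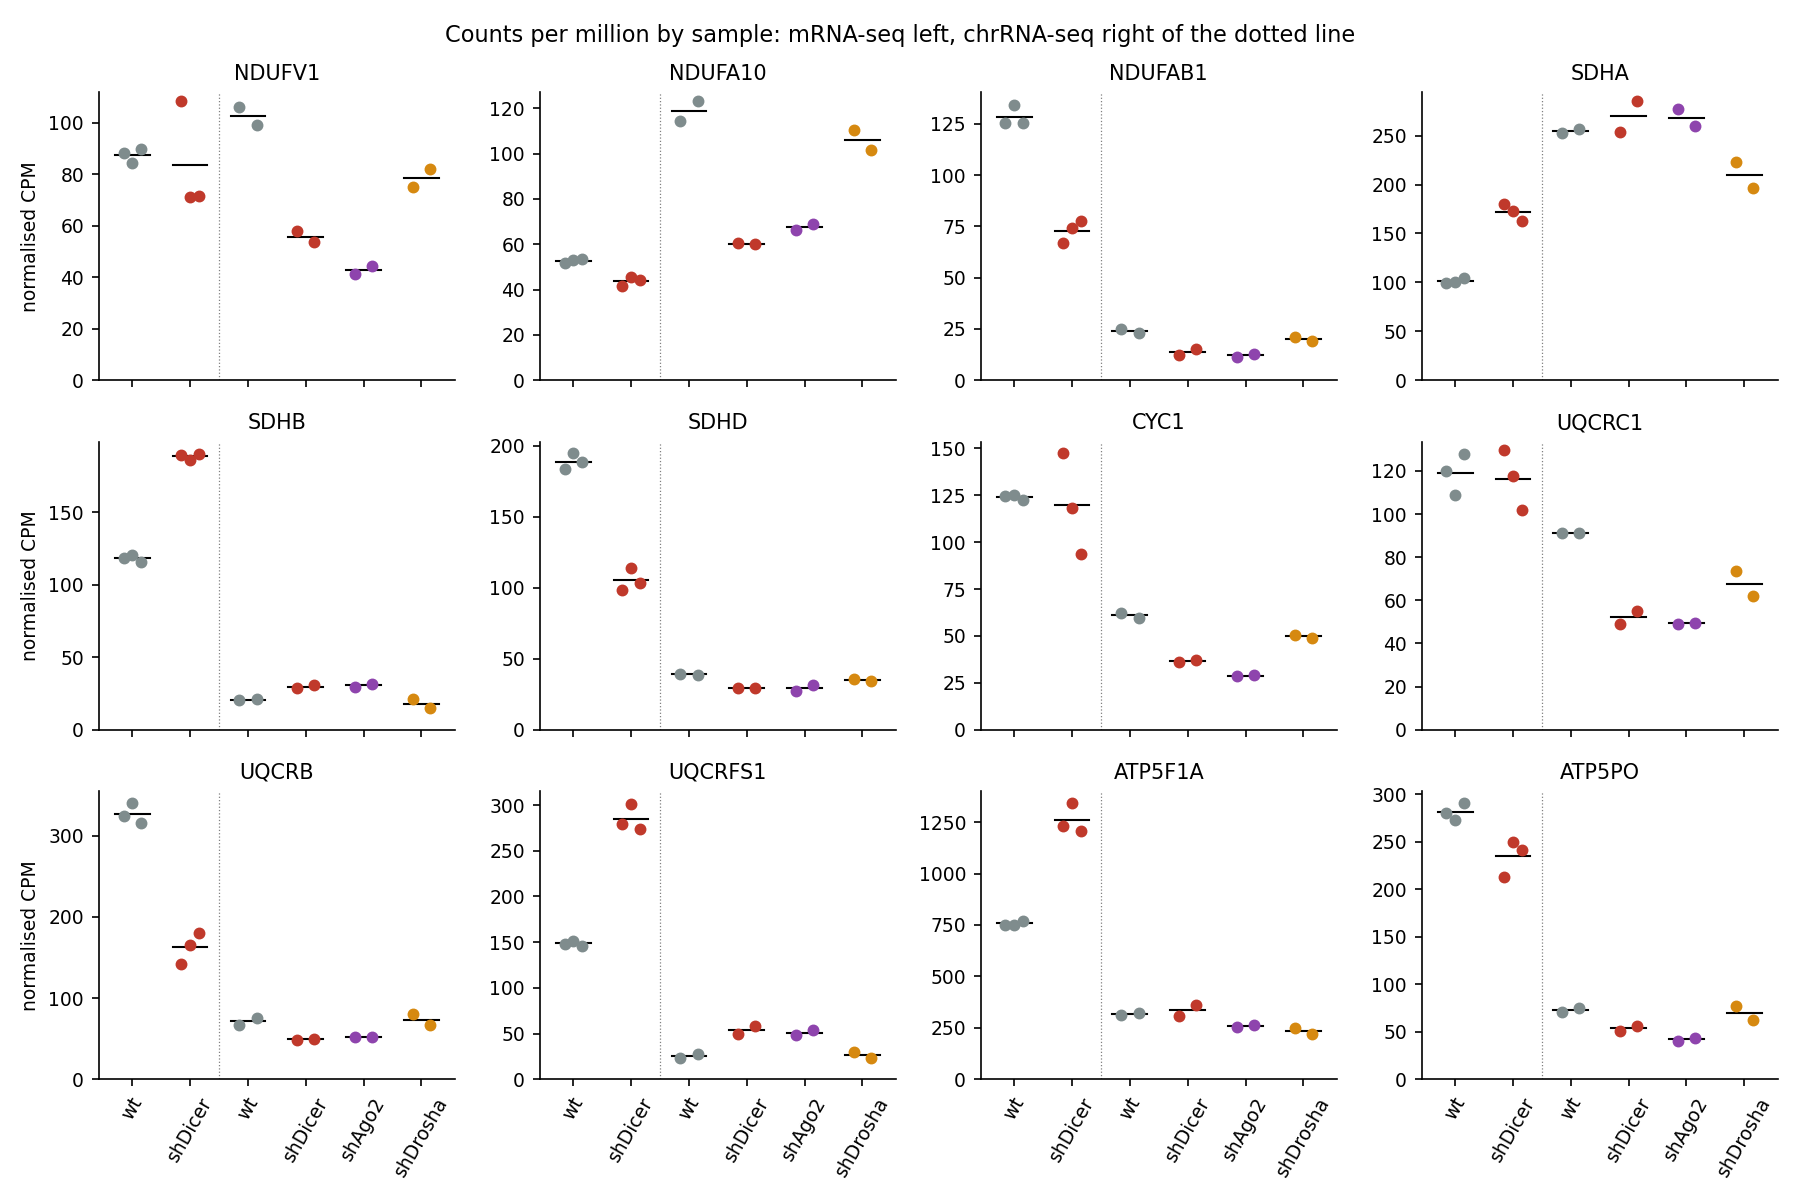
Normalised CPM of 12 members in every sample (points) with the group mean (line), each panel on its own linear axis from 0. SDHA, SDHB, UQCRFS1 and ATP5F1A lie higher in shDicer than in wt mRNA-seq, SDHD, UQCRB and NDUFAB1 lie lower, and NDUFV1, CYC1 and UQCRC1 lie lowest among the chromatin samples in shDicer and shAgo2, with shDrosha between these and wt.

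Within complex I, 4 of 37 subunits (10.8%) rose and 8 (21.6%) fell in shDicer mRNA-seq, beside 15.6% and 14.2% of all genes. NDUFA13 had 64, 65 and 64.3 CPM in wt and 144, 105 and 88.9 CPM in shDicer (0.81 ± 0.15, adjusted p = 0.000717). The NDUFA13 call was lost when wt replicate 1, 2 or 3 or shDicer replicate 2 was left out (highest adjusted p = 0.00846). NDUFS6, a subunit of the NADH-oxidising arm, rose by 0.70 ± 0.10, NDUFB11 by 0.59 ± 0.08 and NDUFV2, which holds an iron-sulfur cluster, by 0.44 ± 0.07. NDUFS6 did not pass without wt replicate 1 or 3 or shDicer replicate 2 (highest adjusted p = 0.00179), nor NDUFB11 without wt replicate 1 or 2 (0.00138). NDUFAB1, the mitochondrial acyl carrier protein, had 125, 134 and 125 CPM in wt and 66.9, 74.2 and 77.6 CPM in shDicer (-0.82 ± 0.08, adjusted p = 7.65e-06). NDUFB9 fell by 0.69 ± 0.07 and NDUFB3 by 0.64 ± 0.09, both accessory subunits of the membrane arm. The assembly factor NDUFAF5, which modifies an arginine of NDUFS7, had the lowest value of all members, going from 42.6, 42.3 and 36.2 CPM to 16.3, 19.3 and 17 CPM (-1.20 ± 0.11, adjusted p = 7.10e-06). All 8 assembly factors had negative values, and NDUFAF5 was the one that passed.

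In ATP synthase 1 of 17 tested subunits (5.88%) rose and 6 (35.3%) fell, beside 15.6% and 14.2% of all genes. ATP5F1A, the alpha subunit of the catalytic head, had 752, 751 and 769.8 CPM in wt and 1231, 1345 and 1209 CPM in shDicer (0.74 ± 0.07, adjusted p = 6.53e-06). ATP5F1B, the beta subunit, had 841, 853 and 845 CPM in wt and 984, 1020.0 and 955 CPM in shDicer, above wt in every sample without passing (adjusted p = 0.0119). Its mean TPM went the other way, at 322 ± 12.8 in wt and 270 ± 34.3 in shDicer (SD, n = 3). ATP5MG, a membrane subunit, fell by 0.62 ± 0.08, ATP5PB of the stator stalk by 0.61 ± 0.07, ATP5F1E, the epsilon subunit, by 0.57 ± 0.07, and the ring gene ATP5MC1 by 0.52 ± 0.08. In complex IV 2 of 12 tested subunits (16.7%) fell, near the 14.2% of all genes. In the same complex 1 was higher at an unadjusted p under 0.05 without passing. NDUFA4 went from 253, 249 and 246 CPM to 139, 156 and 162 CPM (-0.71 ± 0.07, adjusted p = 1.39e-05), and COX6C fell by 0.48 ± 0.07. The ATP5MC1 call was lost without wt replicate 1 or 3 (highest adjusted p = 0.00293), and that of COX6C without wt replicate 2 or 3 (0.00162).

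The shDicer mRNA-seq replicate 1 stood apart for some members: it was the lowest of the 6 samples for 31 of 90 members and the highest for 15. NDUFV1 was at 109, 71 and 71.6 CPM in replicates 1 to 3, and NDUFS7 at 28.4, 13.1 and 11.7 CPM. Without replicate 1 there were 13 higher and 21 lower members.

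In shDicer chrRNA-seq 1 member was higher and 22 lower at an adjusted p under 0.005, or 1.06% and 23.4% of the 94 tested, beside 11% and 10.5% of all 32874 genes. Many of those genes were not tested in mRNA-seq. Among the 14949 genes tested in both assays, 2799 were lower on shDicer chromatin, and 22 of the 90 members so tested were. The median member was at -0.20, against 0.01 for all genes. In shAgo2, 3 were higher and 30 lower, or 3.19% and 31.9%, beside 12.5% and 12.1% of all genes, with a median of -0.29 for the members. These are the same 32874 genes, many not tested in mRNA-seq, and the shAgo2 count among genes tested in both assays is not given here. Counted over transcripts annotated as protein-coding alone, the lower members came to 8 in shDicer and 13 in shAgo2. The share of all genes counted that way is not given here. Summed member levels were 4187 and 4270.4 CPM in wt, 3574 and 3939 CPM in shDicer, 3341 and 3426 CPM in shAgo2 and 3928 and 3571 CPM in shDrosha, so that all 6 knockdown samples lay below both wt samples.

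**Figure D2:**
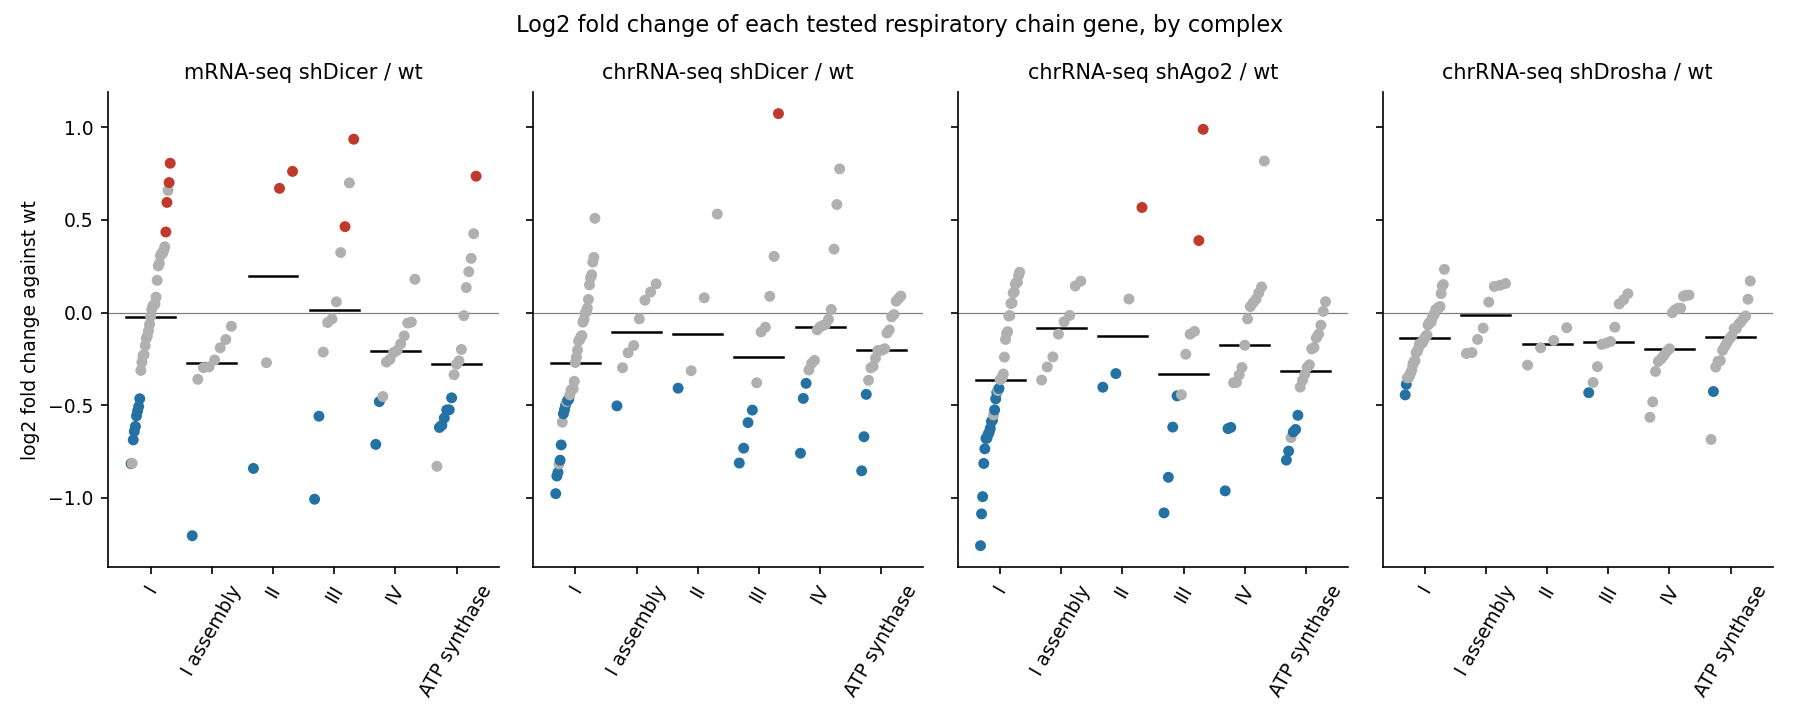
Log2 fold change against wt of the tested members of each complex and of the complex I assembly factors (points) in 4 comparisons, with lines at the medians. Red and blue points passed the test upward and downward and grey points did not: complex I has 10 blue points on shDicer chromatin, 16 on shAgo2 chromatin and 2 on shDrosha chromatin.

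NDUFV1, which binds NADH and the flavin of complex I, had 106 and 99 CPM in wt chromatin, 57.7 and 53.6 CPM in shDicer, 41.3 and 44.5 CPM in shAgo2 and 74.9 and 81.9 CPM in shDrosha. No knockdown sample overlapped wt. The log2 fold changes were -0.88 ± 0.08 in shDicer (adjusted p = 6.75e-06), -1.26 ± 0.08 in shAgo2 (adjusted p = 3.55e-07) and -0.39 ± 0.08 in shDrosha (adjusted p = 0.0263). Most of the NDUFV1 counts were on retained-intron transcripts such as the one printed above. Those had 89.9 and 73.7 CPM in wt, 48.9 and 41.4 CPM in shDicer and 34.6 and 33.1 CPM in shAgo2, while protein-coding transcripts had 10.3 and 13, 4.96 and 9.90, and 4.18 and 8.15 CPM. On the protein-coding transcripts alone NDUFV1 was at -0.65 in shDicer and -0.93 in shAgo2, neither past the threshold (adjusted p = 0.177 and 0.0597). In mRNA-seq NDUFV1 did not pass either (-0.06, adjusted p = 0.730).

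NDUFA10, an accessory subunit, had 114 and 123 CPM in wt chromatin, 60.4 and 60.2 CPM in shDicer, 66.3 and 68.8 CPM in shAgo2 and 110.4 and 102 CPM in shDrosha. Its log2 fold changes were -0.98 ± 0.08 in shDicer (adjusted p = 1.73e-06) and -0.81 ± 0.08 in shAgo2 (adjusted p = 5.86e-06), and here protein-coding transcripts fell as well (-1.03, adjusted p = 2.00e-05, and -0.95, adjusted p = 2.73e-05). The neighbours of NDUFA10 on chromosome 2 had medians of -0.79 and -0.45. NDUFAB1 had 25.1 and 23 CPM in wt, 12.2 and 15.5 CPM in shDicer and 11.5 and 12.7 CPM in shAgo2, and was lower in both lines (-0.80 ± 0.12 and -0.99 ± 0.13). NDUFB10 fell by 0.71 ± 0.08 in shDicer and by 0.68 ± 0.08 in shAgo2. NDUFA8 went from 12 and 13.8 CPM in wt to 6.64 and 5.46 CPM in shAgo2 (-1.09 ± 0.19, adjusted p = 0.000798), with 5.58 and 9.06 CPM in shDicer. The NDUFA8 call was lost without wt replicate 2 or shAgo2 replicate 2 (highest adjusted p = 0.0136), and that of NDUFAB1 in shDicer without wt replicate 1 (0.00639). In all, 10 of 37 complex I subunits (27.0%) were lower in shDicer and 16 (43.2%) in shAgo2, beside 10.5% and 12.1% of all genes.

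In complex III, CYC1, which hands electrons to cytochrome c, had 62.3 and 59.6 CPM in wt chromatin, 36.3 and 37.1 CPM in shDicer, 28.6 and 29 CPM in shAgo2 and 50.8 and 48.8 CPM in shDrosha. It fell by 0.73 ± 0.08 in shDicer (adjusted p = 1.39e-05) and by 1.08 ± 0.08 in shAgo2 (adjusted p = 5.66e-07) on the log2 scale. On protein-coding transcripts alone CYC1 was at -0.36 in shDicer and -0.82 in shAgo2, neither past the threshold (adjusted p = 0.201 and 0.0104), and in mRNA-seq its groups overlapped (-0.05, adjusted p = 0.751). UQCRC1, a core protein, had 91.4 and 91.4 CPM in wt chromatin, 49 and 55.1 CPM in shDicer, 49.1 and 49.6 CPM in shAgo2 and 73.5 and 62 CPM in shDrosha. All 3 falls of UQCRC1 passed (-0.81 ± 0.09, -0.89 ± 0.09 and -0.43 ± 0.09). UQCRFS1 went the other way, with 23.8 and 27.3 CPM in wt, 49.8 and 57.7 CPM in shDicer and 47.9 and 53.5 CPM in shAgo2 (1.07 ± 0.12, adjusted p = 3.17e-05, and 0.99 ± 0.12, adjusted p = 5.01e-05). In shDrosha UQCRFS1 was at 29.9 and 23.8 CPM, overlapping wt.

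Of complex II on chromatin, SDHB had 20.3 and 20.9 CPM in wt, 28.6 and 31 CPM in shDicer and 29.7 and 31.4 CPM in shAgo2, past the threshold in shAgo2 (0.57 ± 0.13, adjusted p = 0.00379) and short of it in shDicer (0.53 ± 0.13, adjusted p = 0.00634). SDHD fell by 0.41 ± 0.09 in shDicer and by 0.40 ± 0.09 in shAgo2. SDHC fell in shAgo2 (-0.33 ± 0.08, adjusted p = 0.00435). In shAgo2 these 3 calls were each lost when any wt or shAgo2 replicate was left out (highest adjusted p = 0.0372 for SDHB, 0.0629 for SDHC and 0.0561 for SDHD). The SDHD call in shDicer was lost without any wt or shDicer replicate or shAgo2 replicate 2 (highest adjusted p = 0.0305). SDHA had 253 and 257 CPM in wt, 254 and 285 CPM in shDicer and 277 and 260.0 CPM in shAgo2, with no difference past the threshold (0.08 ± 0.09 and 0.07 ± 0.09). In shDrosha SDHA had 223 and 197 CPM (adjusted p = 0.104).

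Of the ATP synthase genes, 3 of 18 (16.7%) were lower in shDicer chromatin and 5 (27.8%) in shAgo2, beside 10.5% and 12.1% of all genes. ATP5PO, the oligomycin sensitivity protein that joins stalk and head, had 70.3 and 75.3 CPM in wt, 51.1 and 56.2 CPM in shDicer, 40.6 and 43.3 CPM in shAgo2 and 76.6 and 62.9 CPM in shDrosha. It fell by 0.80 ± 0.10 in shAgo2 (adjusted p = 5.99e-05) and by 0.44 ± 0.10 in shDicer (adjusted p = 0.00414). ATP5MG fell by 0.85 ± 0.12 and 0.55 ± 0.12 in shDicer and shAgo2, and ATP5F1E by 0.67 ± 0.10 and 0.75 ± 0.10. In complex IV, 3 of 15 tested subunits (20%) were lower in each line, beside the same shares of all genes. Among them were COX4I1 (-0.46 ± 0.09 in shDicer and -0.62 ± 0.09 in shAgo2) and COX8A (-0.76 ± 0.13 and -0.63 ± 0.13). NDUFA4L2 had 18 and 14.5 CPM in wt and 8.16 and 8.57 CPM in shAgo2 (-0.96 ± 0.16, adjusted p = 0.000517). Without single samples several of these calls were lost: ATP5PO in shDicer without any replicate of wt, shDicer or shAgo2 (highest adjusted p = 0.0455), ATP5MG in shAgo2 without any of wt or shAgo2 (0.0423), and ATP5F1E in shDicer without wt replicate 2 (0.00513). COX8A was lost in both lines, and COX4I1 in shDicer, without either wt replicate or replicate 1 of the line itself (highest adjusted p = 0.00900, 0.0388 and 0.0188), COX4I1 in shAgo2 without shAgo2 replicate 1 (0.00503), and NDUFA4L2 in shAgo2 without wt replicate 1 or either shAgo2 replicate (0.0101).

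The counts of lower members changed when single samples were left out, which leaves 1 sample in that group. Without wt replicate 1 there were 10 lower members in shDicer and 14 in shAgo2, and without wt replicate 2 there were 8 and 14. Leaving out shAgo2 replicate 1 gave 12 lower members in shAgo2, leaving out shAgo2 replicate 2 gave 14, and leaving out shDicer replicate 1 gave 13 in shDicer. The number higher in shDicer was 2 without shDicer replicate 2 and 4 without shDrosha replicate 1 or 2, and in shAgo2 it was 1 without either replicate of wt or of shAgo2.

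In shDrosha 4 members were lower at an adjusted p under 0.05, or 4.26% of 94, beside 2.18% of all genes. The number higher was 0, beside 1.2% of all genes (edgeR; 0 also with DESeq2 and at an unadjusted p under 0.05). NDUFA13 had 53.7 and 45.8 CPM in wt and 36.9 and 36.3 CPM in shDrosha (-0.44 ± 0.09, adjusted p = 0.0268). ATP5F1A had 312 and 323 CPM in wt and 251 and 221 CPM in shDrosha (-0.43 ± 0.10, adjusted p = 0.0347). The other two were UQCRC1 and NDUFV1, given above. Without wt replicate 1 or 2, and without shAgo2 replicate 1 or 2, which enter through the shared estimate of spread, 0 members passed. The median member was at -0.14.

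Set against each other, shDicer and shAgo2 chromatin differed for 2 members, both higher in shDicer (beside 1.37% higher and 1.34% lower of all genes at an adjusted p under 0.005). ATP5MC2 had 51.8 and 48.4 CPM in shDicer and 37 and 36.5 CPM in shAgo2 (0.45 ± 0.08, adjusted p = 0.00429). NDUFA4L2 had 18.3 and 13.5 CPM in shDicer and 8.16 and 8.57 CPM in shAgo2 (0.93 ± 0.16, adjusted p = 0.00404). Leaving out wt replicate 1 or 2 or shAgo2 replicate 1 or 2 gave 0, and leaving out shDicer replicate 1 or 2 gave 1. The number lower was 0 with edgeR and with DESeq2, and 2 at an unadjusted p under 0.05. For NDUFV1 the difference was 0.38 (adjusted p = 0.0162) and for CYC1 0.35 (adjusted p = 0.0152).

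The shDicer change was compared between the assays in 1 fit of 10 samples. In mRNA-seq and chrRNA-seq, which share no sample, 12 members fell in both, of 20 lower in mRNA-seq (60%) and 22 lower on chromatin (54.5%). Of all 14949 genes tested in both, 1144 fell in both, which was 53.7% of those lower in mRNA-seq and 40.9% of those lower on chromatin. The 12 were ATP5F1E, ATP5MG, COX6C, NDUFAB1, NDUFAF5, NDUFB10, NDUFB3, NDUFC1, NDUFS3, SDHD, UQCRB and UQCRC2. UQCRFS1 rose in both, and 0 members passed in opposite directions.

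**Figure D3:**
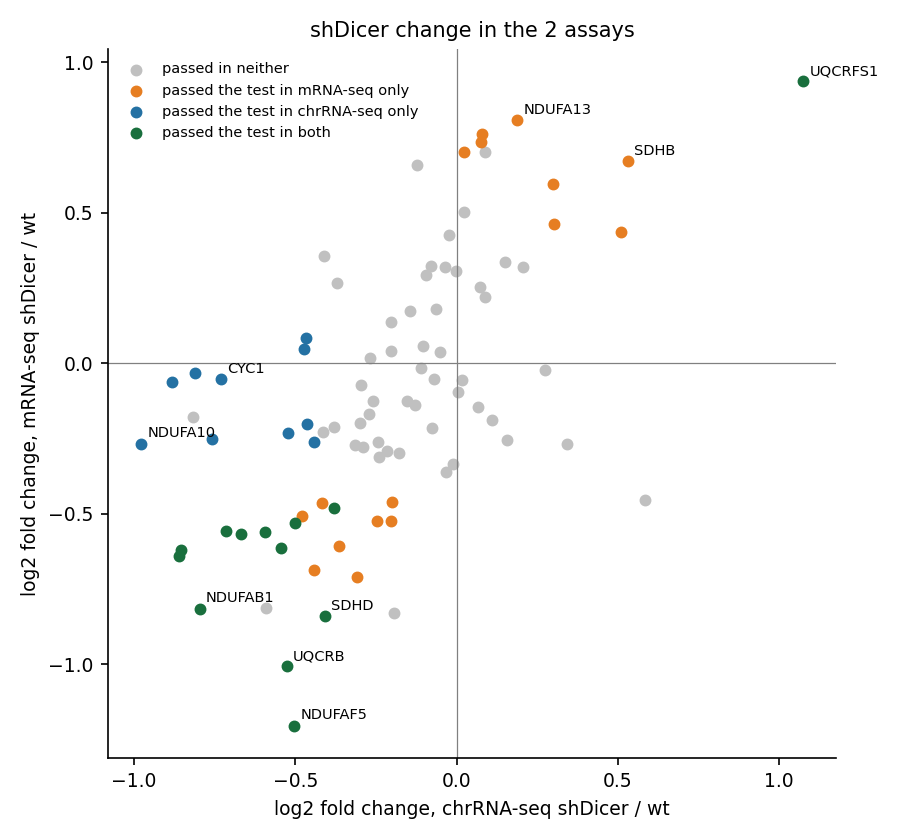
Log2 fold change of shDicer against wt for each member tested in both assays, chrRNA-seq on the horizontal and mRNA-seq on the vertical axis, coloured by where the member passed the test. UQCRFS1 is at the upper right, the 12 members that fell in both are at the lower left, and CYC1 is to the left at -0.05 in mRNA-seq.

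The difference between the assays itself passed for 7 members, all with the higher value in mRNA-seq (adjusted p under 0.005, beside 3.8% higher and 1.2% lower of all 31106 genes, whose median was 0.10). Among them were UQCRC1 (0.86 ± 0.16, adjusted p = 0.00173), NDUFA10 (0.79 ± 0.12, adjusted p = 0.000324), SDHA (0.76 ± 0.12, adjusted p = 0.000535), ATP5F1A (0.74 ± 0.13, adjusted p = 0.00103), NDUFB1 (0.71 ± 0.13, adjusted p = 0.00156) and NDUFB2 (0.60 ± 0.12, adjusted p = 0.00264). For SDHA and ATP5F1A the mRNA rose while chromatin did not differ past the threshold. For UQCRC1, NDUFA10 and NDUFB2 the chromatin RNA fell and the mRNA did not pass. For NDUFB1 neither change passed alone. On protein-coding transcripts alone NDUFA10 was the 1 that passed. The number was 0 without wt chrRNA-seq replicate 2, 3 without wt chrRNA-seq replicate 1, 2 without wt mRNA-seq replicate 2 and 4 without shDicer chrRNA-seq replicate 1. The number lower was 0 with edgeR, 4 with DESeq2, and 6 at an unadjusted p under 0.05, and without shDicer mRNA-seq replicate 3 it was 1.

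UQCRC1 counts also lay on different transcripts. Protein-coding transcripts had 9.46, 7.79 and 21.1 CPM in wt mRNA-seq and 56.7, 25.6 and 12.1 CPM in shDicer, while retained-intron transcripts had 53.5, 47.3 and 53 CPM and 38.1, 45.5 and 45 CPM. The groups overlap for the protein-coding class, and the gene total did not pass (-0.03, adjusted p = 0.787).

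Changes of the genes beside each member were taken as the median over its 50 nearest tested genes on the chromosome. Over the members these had a median of 0.01 in shDicer mRNA-seq, -0.06 in shDicer chromatin and -0.10 in shAgo2 chromatin, against medians of -0.16, -0.20 and -0.29 for the members themselves. Some members had neighbours that moved the same way. That change was as large as the member's own for UQCRFS1 in shDicer chromatin and for SDHB. It was smaller in the other cases given next. UQCRFS1 on chromosome 19 had neighbours at 0.63 in shDicer mRNA-seq, 1.11 in shDicer chromatin and 0.84 in shAgo2. SDHB on chromosome 1 had neighbours at 0.73 in shDicer mRNA-seq and 0.69 in shAgo2 chromatin, and CYC1 had neighbours at -0.60 and -0.73 in shDicer and shAgo2 chromatin. With that median taken off, 3 of the 9 higher and 6 of the 20 lower members still passed in shDicer mRNA-seq, 7 of 22 lower in shDicer chromatin and 12 of 30 lower in shAgo2 chromatin. UQCRFS1 was then at -0.0400 in shDicer chromatin (adjusted p = 0.836) and at 0.31 in shDicer mRNA-seq (adjusted p = 0.00303), and SDHB was at -0.0609 in mRNA-seq. SDHA, ATP5F1A and NDUFB11 still passed upward in mRNA-seq, and SDHD, UQCRB, NDUFA4, NDUFAF5, NDUFB3 and ATP5MC1 downward. On chromatin NDUFV1, UQCRC1, NDUFAB1 and NDUFB2 passed in both inducible lines, and CYC1 and NDUFA10 in shAgo2.

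**Figure D4:**
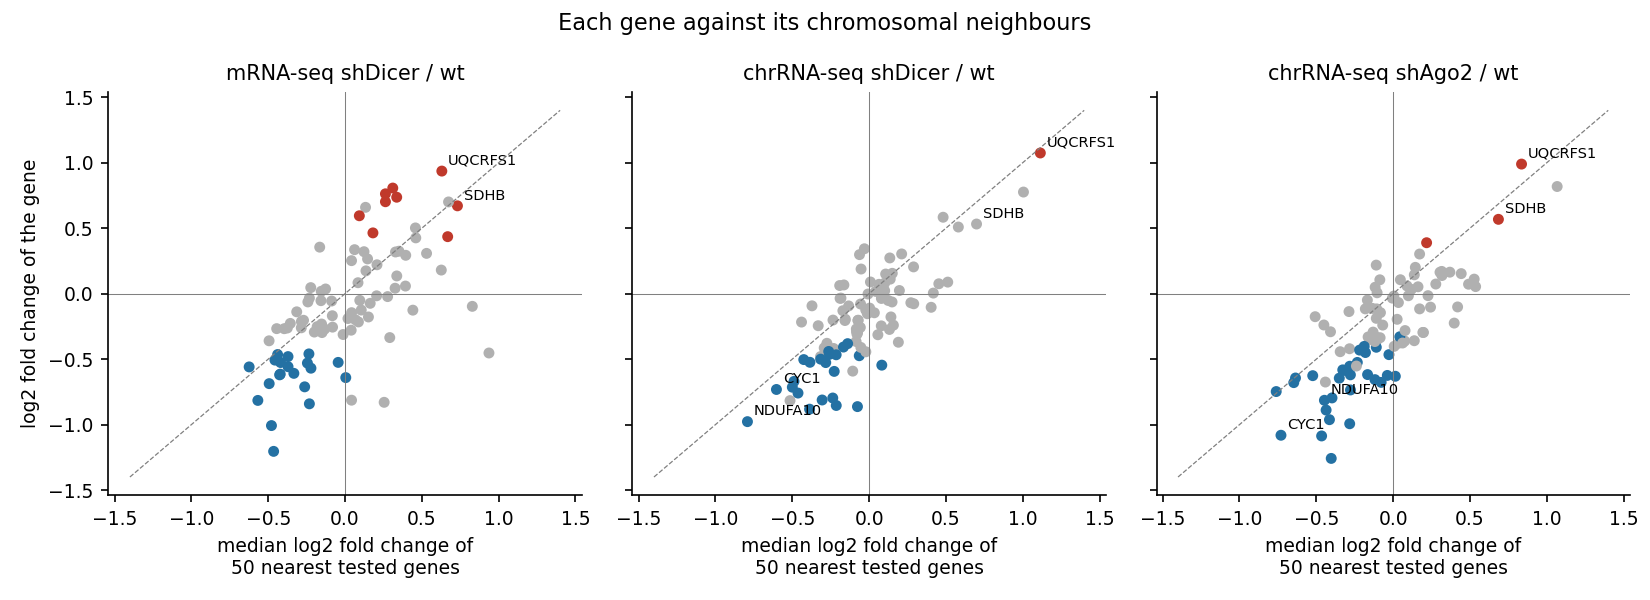
Log2 fold change of each member (vertical) against the median log2 fold change of its 50 nearest tested genes (horizontal) in 3 comparisons, with a dashed line where both are equal. Red and blue points passed the test upward and downward; UQCRFS1 and SDHB lie at the upper right, where SDHB's neighbours are at 0.73 in mRNA-seq.

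Promoters were read for the 78 members found in RefSeq (GRCh38.p14), from 250 bases before to 50 after the start, on both strands. The NRF1 core GCGCATGC stood in 15 (19.2%) of them, against 3.74% of 22199 promoters of coding genes. The ETS core CCGGAAG stood in 21 (26.9%) against 12.8%, the YY1 core AAGATGGC in 11 (14.1%) against 3.53%, and the SP1 core GGGCGG in 45 (57.7%) against 56.3%. The 150 bases before the start are printed for 4 members, to show matches in members that fell in shDicer mRNA-seq (SDHD, ATP5PF) and in one that rose (SDHB), and the member with the lowest value there (NDUFAF5), whose 150 bases hold none, with NRF1, ETS and YY1 matches on either strand in capitals, overlapping matches run together.
SDHD (chr11:112086723-112086872, plus strand): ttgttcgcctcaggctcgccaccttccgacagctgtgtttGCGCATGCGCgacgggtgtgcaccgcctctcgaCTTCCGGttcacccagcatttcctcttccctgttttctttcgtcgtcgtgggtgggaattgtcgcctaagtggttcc
NDUFAF5 (chr20:13784878-13785027, plus strand): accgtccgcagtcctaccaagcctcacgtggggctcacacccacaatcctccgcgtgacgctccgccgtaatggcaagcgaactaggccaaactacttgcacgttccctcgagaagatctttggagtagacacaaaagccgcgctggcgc
ATP5PF (chr21:25735055-25735204, minus strand): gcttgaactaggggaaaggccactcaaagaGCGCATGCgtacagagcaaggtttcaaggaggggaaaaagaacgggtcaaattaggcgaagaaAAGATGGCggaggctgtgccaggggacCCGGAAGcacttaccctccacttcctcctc
SDHB (chr1:17054033-17054182, minus strand): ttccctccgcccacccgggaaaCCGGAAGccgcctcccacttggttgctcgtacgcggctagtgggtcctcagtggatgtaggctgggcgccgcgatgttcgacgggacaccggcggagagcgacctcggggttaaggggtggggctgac
A match is only these letters in this window. In shAgo2 chromatin, 5 of 15 members with the NRF1 core were lower, with a median of -0.36, and 19 of the 59 without it, with a median of -0.29. In shDicer mRNA-seq the 15 members with it had a median of -0.19 and the 58 without it -0.14. With and without the ETS core the medians were -0.20 and -0.14 in shDicer mRNA-seq, and -0.14 and -0.30 in shAgo2 chromatin. With and without the YY1 core they were 0.02 and -0.18, and -0.40 and -0.24.

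Genes around the family give the setting. The 13 mitochondrially encoded mRNAs, which make the core of the same complexes, summed to 1686, 1802 and 1795 CPM in wt mRNA-seq and 2356, 2596 and 2835 CPM in shDicer. On chromatin they summed to 4508 and 4942 CPM in wt and 6339 and 5611 CPM in shDicer. In shAgo2 the sums were 7356 and 7483 CPM, and in shDrosha 5721 and 5688 CPM. The median of the 13 was at 0.07 (log2) in shDicer mRNA-seq and at 0.38 in shAgo2 chromatin, smaller changes than those of the sums. Of the 13, 3 (23.1%) rose in shDicer mRNA-seq, among them MT-CO1 (0.91 ± 0.08), beside 15.6% of all genes. On chromatin 2 (15.4%) rose in shDicer, 3 (23.1%) in shAgo2 and 3 (23.1%) in shDrosha. The shares of all genes higher there were 11%, 12.5% and 1.2%. Of 47 assembly factors outside the name rule, 9 were lower in shDicer mRNA-seq, 9 in shDicer chromatin and 9 in shAgo2 chromatin, each 19.1%, beside 14.2%, 10.5% and 12.1% of all genes. Of 15 regulators of respiratory gene transcription, 7 (46.7%) fell in shDicer mRNA-seq, beside 14.2% of all genes. Among them were TFB2M (-1.43 ± 0.12), GABPA (-0.94 ± 0.08) and TFAM (-0.44 ± 0.07). PPARGC1A, the coactivator PGC-1α, rose there (1.84 ± 0.27) and in shDicer and shAgo2 chromatin (3.50 ± 0.27 and 3.62 ± 0.27). Of 18 electron carrier and coenzyme Q genes 2 rose and 2 fell in shDicer mRNA-seq (11.1% each, under the 15.6% and 14.2% of all genes), cytochrome c (CYCS) at -1.14 ± 0.08. Of 18 tricarboxylic acid cycle enzymes 5 (27.8%) fell and 2 (11.1%) rose there, beside 14.2% and 15.6% of all genes. On chromatin 6 (33.3%) fell in shDicer, 9 (50%) in shAgo2 and 4 (22.2%) in shDrosha. The shares of all genes lower there were 10.5%, 12.1% and 2.18%. The cytosolic ribosomal protein genes, also short and highly expressed, had 28 of 83 (33.7%) lower in shDicer chromatin, beside 10.5% of all genes. Their median was -0.32, beside -0.20 for the respiratory genes.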

How the data were processed

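Gene levels came from kallisto tables of 14 HEK293 samples, 6 of mRNA-seq and 8 of chrRNA-seq; 6 small RNA samples were not analysed here. The authors ran kallisto 0.43.1 (strand-specific) against Ensembl 89 cDNA and ncRNA. The deposited files hold estimated counts and TPM per transcript. Per the labels the genome build is hg38.

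Transcript identifiers, without version, were matched to GENCODE 44 (193697 of 217082, holding 93.4 to 94.8% of counts) and estimated counts summed per gene and rounded. edgeR 4.0.16 (R 4.3.3) was used: filterByExpr, TMM, quasi-likelihood test, Benjamini-Hochberg adjustment over all genes; thresholds were 0.001 (mRNA-seq), 0.005 (shDicer and shAgo2 chrRNA-seq) and 0.05 (shDrosha), after the study, and 0.005, set here, for shDicer against shAgo2 and the assay difference. CPM values are TMM-normalised; SE is the log2 fold change divided by the root of F. All chrRNA-seq groups entered 1 fit. TPM served for levels only. DESeq2 1.42.0 was an alternative. Scripts were tested on simulated data. No file column of other samples was used (0).

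The members and gene lists were chosen with earlier results of these data known. Named members were SDHA to SDHD, CYC1, up to 8 called members each way per comparison (mean of 3 or more in log2 CPM), the highest TPM per complex, isoform pairs, and the 3 most and least intron-retaining; other names were picked after values were seen. Alternatives covered scaling, filtering, length, transcript class, pseudogene counts (195 pseudogenes of 52 members), thresholds, single samples left out, a replicate block and the neighbourhood median. Of the members, 35 share over 10% of their 31-base stretches with other genes, so their counts are uncertain. 1 member's own results are not reported here, though it stays in all counts.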

Additional observations from a re-analysis of the deposited data

Results flagged for a closer look

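The 8 results below were singled out because a change differed between groups by a test of the difference itself. The shDicer change was higher in mRNA-seq than in chrRNA-seq for UQCRC1 (difference 0.86 on the log2 scale), NDUFA10 (0.79), SDHA (0.76), ATP5F1A (0.74), NDUFB1 (0.71) and NDUFB2 (0.60). In chrRNA-seq, shDicer lay above shAgo2 for ATP5MC2 (0.45) and NDUFA4L2 (0.93). The wt cells were HEK293T in mRNA-seq and HEK293 in chrRNA-seq, and induction lasted 7 days in one and 72 h in the other, so these cannot be told apart from the assay.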

How the results depend on the processing

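Counts of members called higher and lower are given in the order shDicer mRNA-seq, then shDicer, shAgo2 and shDrosha chrRNA-seq, shDicer against shAgo2, and the assay difference; the cause of a change was not tested. DESeq2 gave 12 and 21, 1 and 18, 1 and 24, 0 and 4, 3 and 0, and 7 and 4. For some settings below only part of the counts is given, and a count not listed may also have changed. DESeq2 size factors gave 0 higher and 1 lower in the assay difference, and library size alone 4 higher in shDicer chrRNA-seq, 1 higher against shAgo2 and 1 lower in the assay difference. Requiring a log2 fold change above 1 left 0 higher and 2 lower, 1 and 0, 0 and 3, and 0 in the other three. An adjusted p under 0.05 gave 18 and 38, 6 and 34, 4 and 47, 0 and 4, 10 and 0, and 14 and 2. For this and the other settings the share of all genes is not given here. The counts therefore do not compare the members with all genes. Length-scaled counts gave 6 higher and 17 lower in mRNA-seq, 15 lower in shDicer, and 2 higher and 20 lower in shAgo2. They gave 0 lower in shDrosha and 0 higher against shAgo2. Without the count filter there were 18 higher in mRNA-seq, 4 higher in shDicer, 4 higher against shAgo2 and 4 higher in the assay difference. Fitting only the 2 groups gave 3 higher in shDicer, 45 lower in shAgo2 and 1 against shAgo2. Protein-coding transcripts gave 16 lower in mRNA-seq, 8 lower in shDicer, 1 and 13 in shAgo2, and 1 lower in shDrosha. They gave 1 against shAgo2 and 1 in the assay difference. Adding pseudogene counts gave 1 against shAgo2 and 2 lower in the assay difference. The neighbourhood median, chosen after seeing the data, gave 4 and 11, 0 and 9, 0 and 17, 0 and 1, 0 and 0, and 6 and 1. It turned SDHB to -0.0609 in mRNA-seq and -0.12 in shAgo2, UQCRFS1 to -0.0400 in shDicer chrRNA-seq, ATP5F1E to 0.0133 in shAgo2 and ATP5MC2 to -0.0319 against shAgo2.

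Leaving out 1 sample gave 5 to 13 and 15 to 21, 1 to 4 and 8 to 24, 1 to 4 and 12 to 34, 0 and 0 to 6, 0 to 3 and 0, and 0 to 10 and 0 to 1. Where that leaves 1 sample in a group, it is assumed to vary like the others.

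Samples with the same replicate number correlated at 0.0455 to 0.0813 in mRNA-seq and -0.131 to 0.0278 in chrRNA-seq. Different numbers correlated at -0.0932 to 0.0151 in mRNA-seq. With 2 samples a group, the chrRNA-seq values of same and different numbers mirror each other by construction. Whether the numbers pair the samples is thus not settled. With the replicate block there were 9 and 20, 1 and 18, 2 and 21, 0 and 0, 1 and 0, and 10 and 0. Crossing the shDrosha numbers in the block, chosen after seeing the data, gave 5 and 27, 4 and 40, 0 and 11, and 8 and 0 in chrRNA-seq. Depth limits members with few counts, such as NDUFA6 on chromatin (0.265 to 0.632 CPM).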
